A study of Mus musculus with 22 samples.

Results

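The genes described here are 10 epithelial genes that mark bile duct cells, ductular change or epithelial injury in the liver, taken by gene symbol from the 45777 genes of the count tables. They are the filament keratins Krt8 and Krt18, the duct keratins Krt7, Krt19 and Krt23, the surface proteins Epcam and Cd24a, the transcription factor Sox9, and the injury-associated genes Tff3 and Sprr1a. All 10 were found in both cohorts and all 10 passed the filter on low counts. Liver RNA was read in 22 strand-specific, polyA-selected libraries from male, wild-type C57BL/6J mice, in 2 cohorts of 11 that the labels give as separate batches. In the first cohort, 4 HFD DTMB libraries (high-fat diet with DTMB) and 4 HFD vehicle libraries (labelled MASLD, the fatty liver model) stood beside 3 ND libraries (normal diet with vehicle). In the second, 3 MCD DTMB libraries (methionine- and choline-deficient diet with DTMB) and 4 MCD vehicle libraries (labelled MASH, the steatohepatitis model) stood beside 4 ND libraries of their own. DTMB, a code name, was an oral dose of 10 mg/kg each day, and every other group received vehicle. The labels give no age, time on diet or length of dosing. The libraries are numbered as biological replicates. Nothing in the labels ties each to its own animal, so p-values measure the spread between these libraries.

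Hepatocytes carry a simple filament of the type II keratin Krt8 paired with the type I keratin Krt18, whereas bile duct cells add Krt7 and Krt19. When liver tissue is injured over a long time, duct-like cells that express Krt7, Krt19, Epcam, Cd24 and Sox9 often spread from the portal tracts, a change known as the ductular reaction. In fatty liver disease, hepatocytes can also raise Krt8 and gather Krt8 and Krt18 into Mallory-Denk bodies.

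The promoters of the keratin pair and of the 2 members with the largest increases on MCD are given as RefSeq reference sequence of GRCm38.p6 from 250 bases before to 50 bases after the annotated start, read on the gene's own strand. Krt8 (gene ID 16691) lies at chr15:101996711-102004342 and Krt18 (gene ID 16668) at chr15:102028216-102032026, with starts 23874 bases apart. Krt23 (gene ID 94179) lies at chr11:99477973-99493120 and Sprr1a (gene ID 20753) at chr3:92483954-92485881. The windows are chr15:102004293-102004592 on the minus strand for Krt8, chr15:102027966-102028265 on the plus strand for Krt18, chr11:99493071-99493370 on the minus strand for Krt23 and chr3:92485832-92486131 on the minus strand for Sprr1a. Capitals mark the letters of an AP-1 site (TGANTCA) or a TATA box (TATAAA), searched on both strands.
Krt8: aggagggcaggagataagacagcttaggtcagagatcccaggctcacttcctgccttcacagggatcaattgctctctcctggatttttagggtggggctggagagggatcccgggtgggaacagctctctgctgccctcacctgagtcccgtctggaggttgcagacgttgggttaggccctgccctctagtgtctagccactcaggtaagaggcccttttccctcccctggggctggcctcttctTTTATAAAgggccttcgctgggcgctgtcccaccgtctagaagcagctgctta
Krt18: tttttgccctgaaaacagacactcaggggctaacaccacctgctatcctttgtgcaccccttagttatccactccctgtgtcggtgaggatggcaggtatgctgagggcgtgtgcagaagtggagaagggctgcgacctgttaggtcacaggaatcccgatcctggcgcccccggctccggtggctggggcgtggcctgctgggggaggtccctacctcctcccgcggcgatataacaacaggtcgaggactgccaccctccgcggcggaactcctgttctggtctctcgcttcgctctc
Krt23: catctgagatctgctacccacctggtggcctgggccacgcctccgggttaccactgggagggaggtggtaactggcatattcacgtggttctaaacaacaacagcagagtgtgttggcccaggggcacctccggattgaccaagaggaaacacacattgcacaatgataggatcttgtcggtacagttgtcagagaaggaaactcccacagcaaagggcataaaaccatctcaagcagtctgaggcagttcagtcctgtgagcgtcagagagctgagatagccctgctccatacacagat
Sprr1a: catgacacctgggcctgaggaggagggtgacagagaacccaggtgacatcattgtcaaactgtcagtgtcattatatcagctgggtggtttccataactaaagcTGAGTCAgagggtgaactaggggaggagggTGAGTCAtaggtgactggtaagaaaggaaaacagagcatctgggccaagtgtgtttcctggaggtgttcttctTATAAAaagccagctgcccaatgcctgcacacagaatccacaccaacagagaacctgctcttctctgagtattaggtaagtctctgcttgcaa
The Sprr1a window held AP-1 letters at 2 places, 146 and 116 bases before the start, and TATA-box letters 43 bases before it. AP-1 letters were present in 7.81% of 32851 mouse promoter windows of this length and TATA-box letters in 13.6%. In the Krt8 window the TATA-box letters matched on both strands in overlapping positions. Of 4 other motifs searched on both strands, the CCAAT box (CCAAT, 37.4% of windows) was found in the Sprr1a window and the RBPJ letters (TGGGAA, 25.6%) in the Krt8 window, while the TEAD letters (GGAATG, 14.7%) and the SOX letters (AACAAT, 10.7%) were in no member's window. The Krt18, Krt7, Krt23 and Epcam windows held none of the 6 motifs. Windows were available for 6 of the 10 genes, and a match is a description of letters, not of a bound site.

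Library totals ran from 50.1 to 66.7 M counts. Levels are given as CPM, counts scaled to the TMM-adjusted library total of the cohort, and cannot be set side by side across cohorts. The hepatocyte marker Alb was at 52597 CPM or more in every library, so the liver label held. Transcripts of pancreatic acinar cells, summed over 28 genes, were above 100 CPM in 6 libraries. In the HFD cohort these were DTMB replicate 3 (2333 CPM), vehicle replicates 1 (552 CPM) and 4 (3654 CPM), and ND replicates 1 (1758 CPM) and 3 (1584 CPM), and in the MCD cohort ND replicate 4 (606 CPM). No other library was above 25.5 CPM. In the MCD cohort, MCD vehicle replicate 2 and ND replicate 1 stood apart from their groups in several of the 10 genes, and their values are given at those genes.

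On HFD, with vehicle, 3 of the 10 genes passed the test against ND (adjusted p under 0.05 in edgeR's quasi-likelihood test, adjusted over all 15597 genes), while 27.8% of all genes did. Sprr1a and Krt8 rose, beside 15.2% of all genes, and Sox9 fell, beside 12.6%. Sprr1a had 23 to 123 counts in HFD vehicle libraries and at most 11 in any other library of the cohort. It thus passed the count filter through HFD vehicle livers, and the numbers of genes called here and for DTMB on HFD depend on that. The median log2 fold change of the 10 genes was 0.49, against 0.02 over all genes. HFD vehicle and ND libraries did not overlap in 4 of the 10 genes, and in 36% of all genes. Fewer cells of a type and less RNA per cell cannot be told apart in bulk liver RNA.

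DTMB on HFD, set against HFD vehicle to ask what the compound does on this diet, changed 2 of the 10 genes and 12.7% of all genes. Sprr1a fell, beside 6.04% of all genes, and Tff3 rose, beside 6.64%. The median log2 fold change of the 10 genes was -0.20, against -0.01 over all genes. HFD DTMB and HFD vehicle libraries did not overlap in 3 of the 10 genes, against 19.8% of all genes. The count over all genes, 1978 as reported, ran from 483 without HFD vehicle replicate 1 to 2562 without HFD vehicle replicate 3. This comparison and the diet comparison share the HFD vehicle libraries. Without the 5 HFD-cohort libraries that held acinar transcripts, which leaves 3 HFD DTMB, 2 HFD vehicle and 1 ND library, none of the 10 genes passed the test in either comparison, and the count over all genes was 0 for DTMB and 655 for the diet.

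On MCD, with vehicle, 5 of the 10 genes passed the test against ND, among 41.3% of all 16037 genes tested. Krt8, Krt23, Cd24a and Sprr1a rose, beside 20.3% of all genes, and Tff3 fell, beside 21%. Here Sprr1a passed the count filter through the libraries on MCD. The groups did not overlap in these 5 genes, as in 37.7% of all genes. The median log2 fold change of the 10 genes was 0.57, against 0.00 over all genes. DTMB on MCD moved none of the 10 genes past the threshold against MCD vehicle, and 0.00624% of all genes, which is 1 gene. None of the 10 had an unadjusted p under 0.05 there, and DESeq2 also called none of them.

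**Figure D1:**
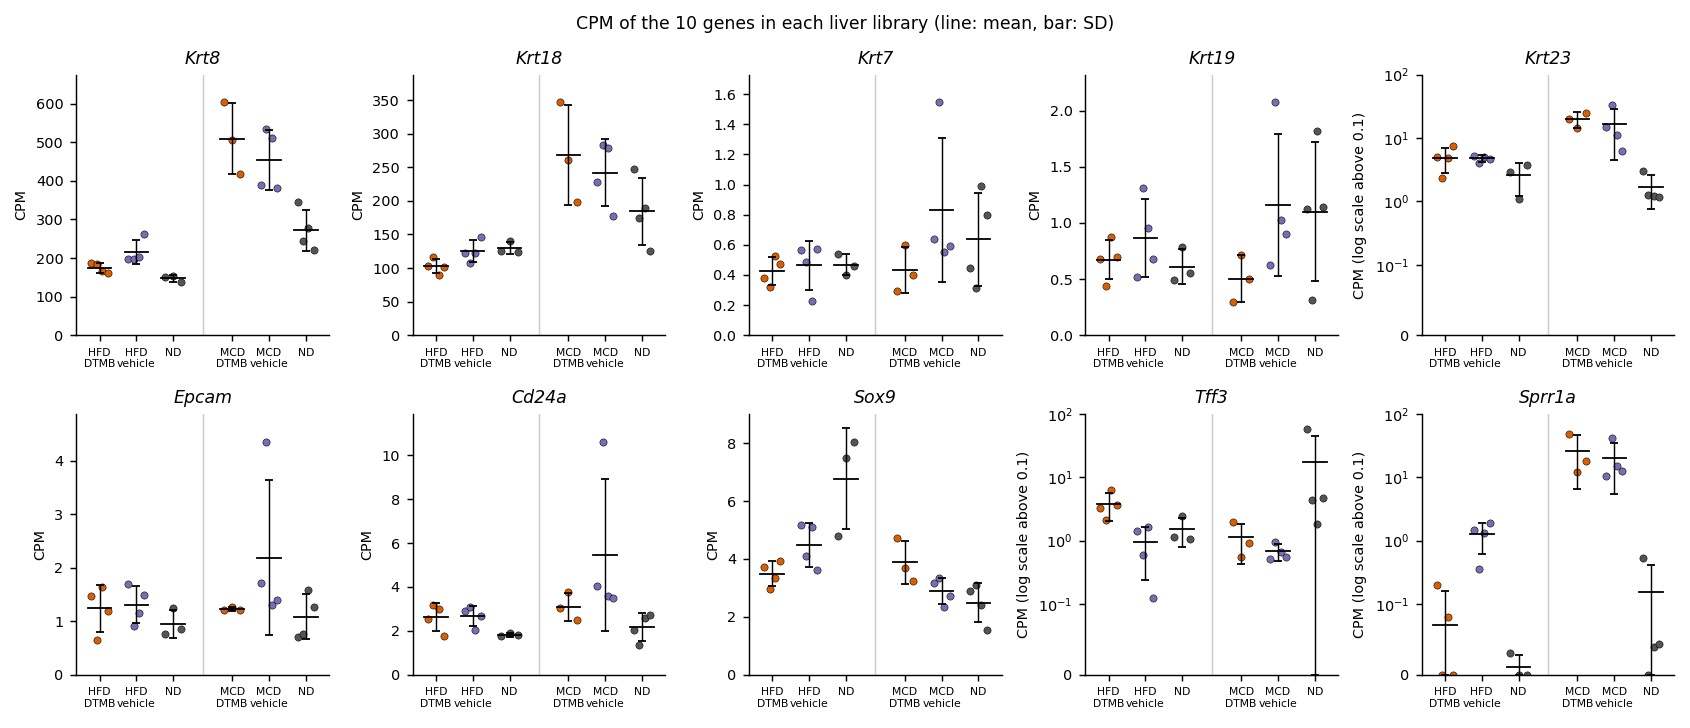
CPM (vertical axis) of each of the 10 genes in the 22 libraries, with DTMB, vehicle and normal-diet groups from left to right and the HFD cohort left of the grey line. Points are libraries, lines means and bars SD; the Krt23, Tff3 and Sprr1a axes are logarithmic above 0.1 CPM and bars that reach below 0 stop there. Krt8 was higher on both disease diets with vehicle, and Sprr1a was at most 0.536 CPM in any normal-diet library.

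Krt8, the type II keratin of the hepatocyte filament, had 197, 199, 202 and 261 CPM in HFD vehicle livers, against 151, 154 and 138 CPM in ND livers. All HFD vehicle libraries were above all ND libraries. Krt8 rose 1.46-fold, a log2 fold change of 0.54 ± 0.11 (SE) with an adjusted p of 0.00291. With the acinar-positive libraries left out it was 0.37 ± 0.13, with an adjusted p of 0.171. In MCD vehicle livers Krt8 had 390.4, 533, 509.7 and 382 CPM, against 344, 244, 277 and 222 CPM in ND livers. These groups did not overlap either, and the log2 fold change was 0.74 ± 0.17 with an adjusted p of 0.00522.

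With DTMB, Krt8 had 188, 184, 166 and 162 CPM in HFD livers. All 4 values were below the lowest HFD vehicle value, but the difference did not pass the test, with a log2 fold change of -0.30 ± 0.10 and an adjusted p of 0.0633. It passed with DESeq2 (adjusted p = 0.0201), library size alone (0.0228) and the stricter count filter (0.0457). HFD DTMB livers were still above all ND livers, at a log2 fold change of 0.25 ± 0.10 that did not pass the test (adjusted p = 0.1). In MCD DTMB livers Krt8 had 603, 507 and 418 CPM, overlapping the MCD vehicle livers, with a log2 fold change of 0.17 ± 0.19 (adjusted p = 0.943). Against ND, MCD DTMB livers were higher by a log2 fold change of 0.91 ± 0.18 (adjusted p = 0.00314). That comparison called 4 of the 10 genes and 32.6% of all genes, with 3 genes higher (16.2% of all genes) and 1 lower (16.4%). MCD DTMB and ND livers did not overlap in 4 of the 10 genes and in 44.1% of all genes.

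Krt18, the type I partner of Krt8, had 123, 107, 122 and 147 CPM in HFD vehicle livers and 126, 140.4 and 123 CPM in ND livers. The groups overlapped, and the log2 fold change was -0.06 ± 0.11 (adjusted p = 0.734). In MCD vehicle livers it had 227, 283, 279 and 178 CPM, against 247, 174, 190.1 and 125 CPM in ND livers. These groups overlapped as well, with a log2 fold change of 0.39 ± 0.23 and an adjusted p of 0.185. HFD DTMB livers had 103, 116, 90.1 and 102 CPM, below every ND liver. Against ND the log2 fold change was -0.34 ± 0.11 (adjusted p = 0.0352), in a comparison that called 2 of the 10 genes, both lower (13.5% of all genes), and 29.2% of all genes in either direction. HFD DTMB and ND livers did not overlap in 3 of the 10 genes and in 35.4% of all genes. That call was lost when any 1 of 6 libraries was left out, ND replicate 1, 2 or 3 or HFD DTMB replicate 1, 3 or 4, with log2 fold changes of -0.38 to -0.28 and adjusted p-values of 0.0505 to 0.129. Against HFD vehicle the log2 fold change of Krt18 was -0.28 ± 0.10 (adjusted p = 0.0849), which passed with DESeq2 (adjusted p = 0.0361) and library size alone (0.0211). MCD DTMB livers had 346, 261 and 198 CPM, which overlapped the MCD vehicle livers.

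The balance of the pair can be read as the ratio of Krt8 to Krt18 counts in each library, which is not scaled for transcript length and serves only to compare libraries. The ratio was 1.71 ± 0.144 in HFD DTMB, 1.72 ± 0.114 in HFD vehicle and 1.14 ± 0.0526 in ND livers (SD, n = 4, 4 and 3). No HFD library was under 1.58 and no ND library of that cohort over 1.20, with or without DTMB. It was 1.93 ± 0.185 in MCD DTMB, 1.89 ± 0.183 in MCD vehicle and 1.505 ± 0.178 in ND livers (SD, n = 3, 4 and 4). Here the ND libraries reached 1.77 in replicate 4, the one with acinar transcripts, and overlapped the MCD libraries, which ranged from 1.72 to 2.15. Without the libraries with acinar transcripts the ND means were 1.10 in the HFD cohort, from 1 library, and 1.42 in the MCD cohort. How the counting shared reads between Krt8 and its pseudogene Krt8-ps is not stated; Krt8-ps counts were 0.444% to 0.747% of Krt8 counts.

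**Figure D2:**
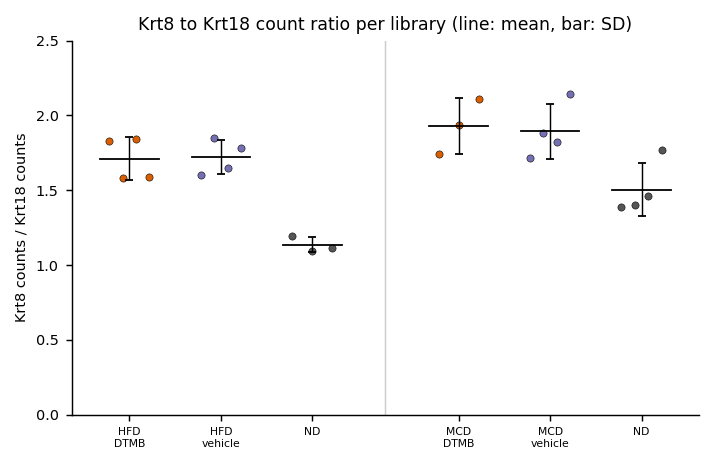
Krt8 counts divided by Krt18 counts (vertical axis) in each library, with DTMB, vehicle and normal-diet groups from left to right in each cohort. Points are libraries, lines means and bars SD; HFD libraries lie at 1.58 to 1.85 with DTMB or vehicle and ND libraries of that cohort at 1.10 to 1.20.

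The duct keratins Krt7 and Krt19, which normal liver expresses mainly in bile duct cells, were near the lower end of detection. Krt7 (gene ID 110310, chr15:101412403-101427806) had 14 to 117 counts per library and Krt19 (gene ID 16669, chr11:100140810-100145926) 14 to 157 counts. Neither passed the test in any comparison with all libraries. Krt19 in MCD DTMB against ND livers had a log2 fold change of -1.12 ± 0.56 (adjusted p = 0.147), which passed without ND replicate 2 (-1.42, adjusted p = 0.0427).

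Krt7 had 0.64, 1.55, 0.554 and 0.592 CPM in MCD vehicle livers, against 0.444, 0.316, 0.988 and 0.799 CPM in ND livers, a log2 fold change of 0.39 ± 0.45 (adjusted p = 0.512). Replicate 2 was the high library of the vehicle group and the other 3 lay within the ND range. In MCD DTMB livers Krt7 had 0.296, 0.6 and 0.403 CPM, and its log2 fold change against MCD vehicle was -0.94 ± 0.49 (adjusted p = 0.923), which without MCD vehicle replicate 2 was -0.45. In the HFD cohort it averaged 0.425 ± 0.0924, 0.464 ± 0.163 and 0.468 ± 0.0699 CPM in HFD DTMB, HFD vehicle and ND livers (SD, n = 4, 4 and 3), with overlapping values.

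Krt19 had 0.627, 2.07, 1.03 and 0.904 CPM in MCD vehicle livers and 1.13, 0.316, 1.82 and 1.14 CPM in ND livers, with a log2 fold change of 0.07 ± 0.49 (adjusted p = 0.925). In MCD DTMB livers it had 0.296, 0.717 and 0.503 CPM, a log2 fold change against MCD vehicle of -1.19 ± 0.56 (adjusted p = 0.919). The groups overlapped, and without MCD vehicle replicate 2 the value was -0.74. In the HFD cohort Krt19 averaged 0.673 ± 0.176, 0.866 ± 0.345 and 0.611 ± 0.155 CPM in HFD DTMB, HFD vehicle and ND livers (SD, n = 4, 4 and 3).

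Krt23, a type I keratin known in mouse liver as a stress-inducible gene of ductular cells, gave the largest keratin change among the 10 genes. It had 14.6, 33.5, 11 and 6.27 CPM in MCD vehicle livers, against 3.05, 1.26, 1.22 and 1.17 CPM in ND livers. Every MCD vehicle library was above every ND library. Krt23 rose 9.7-fold, with a log2 fold change of 3.28 ± 0.51 (adjusted p = 0.00039). Without MCD vehicle replicate 2, the highest library, the log2 fold change was 2.66, and without ND replicate 1, the highest of its group, 3.75. MCD DTMB livers had 19.97, 14.3 and 25.2 CPM, also above all ND libraries, with a log2 fold change of 0.28 ± 0.48 against MCD vehicle (adjusted p = 0.962).

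In HFD vehicle livers Krt23 had 5.24, 4.01, 5.07 and 4.72 CPM, against 2.93, 1.07 and 3.75 CPM in ND livers. The groups did not overlap, yet the log2 fold change of 0.88 ± 0.39 did not pass the test (adjusted p = 0.112). HFD DTMB livers had 4.93, 2.38, 4.81 and 7.46 CPM and spanned the HFD vehicle values. The diet effect was larger in the MCD cohort by 2.43 ± 0.67 on the log2 scale (adjusted p = 0.00813, 16541 genes tested in both cohorts together). That test called 3 of the 10 genes and 35.3% of all genes, with 2 genes higher on MCD (16.8% of all genes) and 1 lower (18.5%). Without the libraries with acinar transcripts the Krt23 difference was 1.10 ± 1.05 (adjusted p = 0.552).

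**Figure D3:**
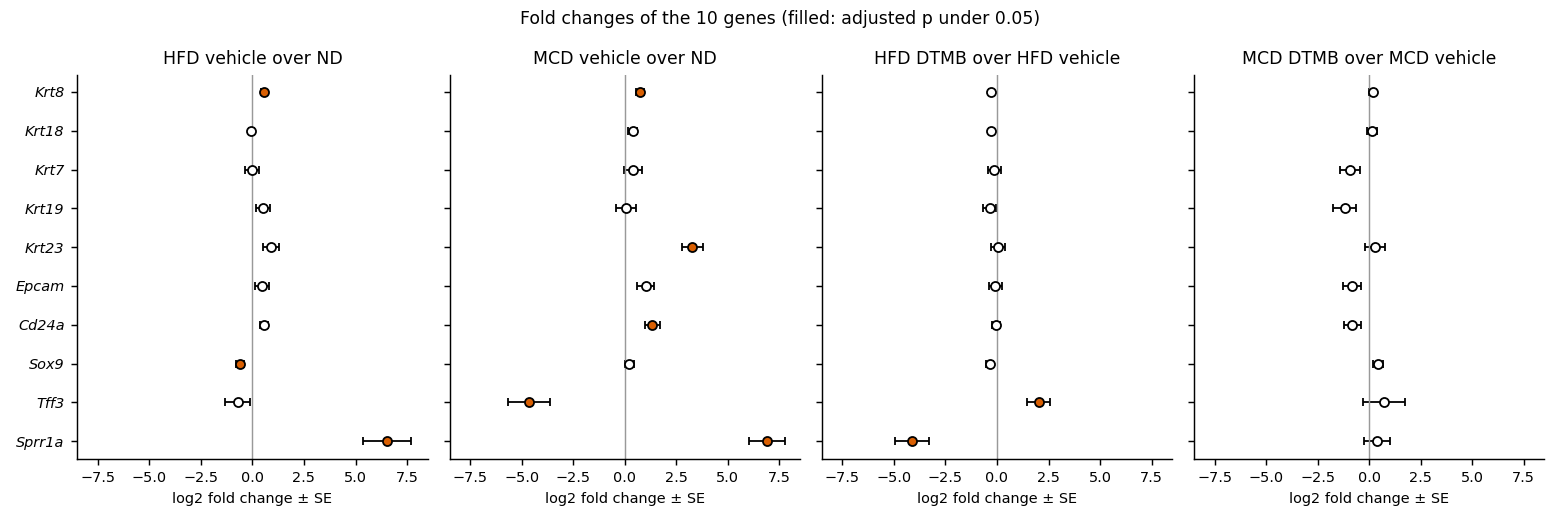
Log2 fold change (horizontal axis) with its SE for the 10 genes in the 4 main comparisons. Filled points have an adjusted p under 0.05, and bars narrower than a point are hidden; Sprr1a was high on both diets with vehicle (6.53 and 6.90) and low with DTMB on HFD (-4.12).

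Epcam, an adhesion protein of duct and progenitor cells (gene ID 17075, chr17:87635979-87651127), had 1.71, 4.36, 1.29 and 1.4 CPM in MCD vehicle livers and 0.703, 0.767, 1.59 and 1.27 CPM in ND livers. Replicate 2 stood well above the other vehicle libraries, 2 of which were below the highest ND library. The log2 fold change of 1.02 ± 0.40 did not pass the test (adjusted p = 0.0618). It passed with DESeq2 (adjusted p = 0.0316), library size alone (0.00979) and all libraries in one fit (0.0296). It was 0.44 (adjusted p = 0.259) without MCD vehicle replicate 2, and it passed without ND replicate 3, MCD vehicle replicate 3 or MCD vehicle replicate 4 (1.20 to 1.26).

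Epcam in MCD DTMB livers had 1.2, 1.27 and 1.21 CPM, all below the lowest MCD vehicle value. It was the 1 gene of the 10 in which these groups did not overlap, as in 5.86% of all genes. Its log2 fold change was -0.84 ± 0.44 (adjusted p = 0.923), and -0.26 without MCD vehicle replicate 2. In the HFD cohort Epcam averaged 1.24 ± 0.439, 1.31 ± 0.346 and 0.951 ± 0.261 CPM in HFD DTMB, HFD vehicle and ND livers (SD, n = 4, 4 and 3), with no call.

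Cd24a, which encodes a small mucin-like surface protein of progenitor and duct cells (gene ID 12484, chr10:43579169-43584265), had 4.05, 10.6, 3.6 and 3.51 CPM in MCD vehicle livers, against 2.05, 1.33, 2.56 and 2.72 CPM in ND livers. All vehicle libraries were above all ND libraries, replicate 2 by far the most. Cd24a rose, with a log2 fold change of 1.33 ± 0.37 (adjusted p = 0.013), and one of 0.78 (adjusted p = 0.0261) without that library. MCD DTMB livers had 3.03, 3.74 and 2.48 CPM, a log2 fold change of -0.82 ± 0.40 against MCD vehicle (adjusted p = 0.919) that was -0.27 without MCD vehicle replicate 2.

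Cd24a in HFD vehicle livers had 2.89, 3.06, 2.05 and 2.68 CPM, against 1.75, 1.9 and 1.78 CPM in ND livers. The groups did not overlap, and the log2 fold change was 0.56 ± 0.21 (adjusted p = 0.0655). It passed the test without HFD vehicle replicate 3 (0.67, adjusted p = 0.0321) or HFD DTMB replicate 4 (0.55, adjusted p = 0.0299). HFD DTMB livers had 2.52, 3.18, 3 and 1.74 CPM and overlapped the vehicle livers.

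Sox9, a transcription factor of bile duct and progenitor cells (gene ID 20682, chr11:112782210-112787757), was the member that fell on HFD. It had 5.16, 4.09, 5.1 and 3.62 CPM in HFD vehicle livers, against 4.8, 7.49 and 8.06 CPM in ND livers. The groups overlapped through ND replicate 1, and the log2 fold change was -0.59 ± 0.18 (adjusted p = 0.032). The call was lost without ND replicate 2 or 3 or HFD vehicle replicate 2 or 4 (log2 fold changes of -0.55 to -0.45, adjusted p-values of 0.0773 to 0.130). It was lost too with library size alone (adjusted p = 0.0728), with the compared groups fitted alone (0.0625) and with all libraries in one fit (0.0530). It was also lost without the libraries with acinar transcripts (-0.72 ± 0.23, adjusted p = 0.138). Of the ND libraries, replicates 1 and 3 held those transcripts and replicate 2 did not.

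HFD DTMB livers had 3.74, 2.96, 3.34 and 3.93 CPM of Sox9, all below the lowest ND value. The log2 fold change against ND was -0.95 ± 0.19 (adjusted p = 0.00263), and -1.09 ± 0.21 (adjusted p = 0.0288) without the libraries with acinar transcripts. Against HFD vehicle it was -0.36 ± 0.18 (adjusted p = 0.182). In the MCD cohort Sox9 had 4.71, 3.67 and 3.25 CPM in MCD DTMB, 3.18, 3.34, 2.35 and 2.73 CPM in MCD vehicle and 2.9, 3.09, 2.42 and 1.55 CPM in ND livers. The MCD vehicle and ND livers overlapped, with a log2 fold change of 0.22 ± 0.23 (adjusted p = 0.461). MCD DTMB livers were all above ND livers, with a log2 fold change of 0.64 ± 0.24 that did not pass the test (adjusted p = 0.0621). It passed with DESeq2 (adjusted p = 0.0364), library size alone (0.0103), all libraries in one fit (0.0256) and without ND replicate 2 (0.0461). The diet effect on Sox9 differed between cohorts by 0.84 ± 0.30 (adjusted p = 0.0327), a call kept in 14 of the 22 fits that each left out 1 library, and 0.79 (adjusted p = 0.141) without the libraries with acinar transcripts.

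Tff3, a secreted trefoil peptide of mucosal surfaces and of biliary epithelium (gene ID 21786, chr17:31125306-31129611), had 3.22, 2.11, 6.29 and 3.66 CPM in HFD DTMB livers, against 1.4, 0.599, 1.63 and 0.124 CPM in HFD vehicle livers. Every HFD DTMB library was above every HFD vehicle library. Tff3 rose 4.08-fold, with a log2 fold change of 2.03 ± 0.57 (adjusted p = 0.0386). The call was lost when HFD vehicle replicate 1, 2 or 4 or HFD DTMB replicate 2, 3 or 4 was left out (log2 fold changes of 1.66 to 2.29, adjusted p-values of 0.0502 to 0.0997), and without the libraries with acinar transcripts (1.43 ± 0.42, adjusted p = 0.289). ND livers of that cohort had 1.16, 2.42 and 1.05 CPM, and HFD vehicle livers did not differ from them past the threshold (log2 fold change -0.71 ± 0.61, adjusted p = 0.415).

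In MCD vehicle livers Tff3 had 0.509, 0.964, 0.673 and 0.561 CPM, against 57.6, 4.35, 1.86 and 4.68 CPM in ND livers. All MCD vehicle libraries were below all ND libraries, and ND replicate 1, with 3115 counts, was 15.9 times the mean of the other 3. Tff3 fell, with a log2 fold change of -4.66 ± 1.01 (adjusted p = 0.00336), and one of -2.42 ± 0.44 (adjusted p = 0.00165) without ND replicate 1. MCD DTMB livers had 1.94, 0.556 and 0.923 CPM, overlapping both other groups, with a log2 fold change of -3.92 ± 1.10 against ND (adjusted p = 0.0173) that did not pass without MCD DTMB replicate 2 (-3.58, adjusted p = 0.0711) or replicate 3 (-3.79, adjusted p = 0.0662). The diet effect differed between cohorts by -3.91 ± 1.27 (adjusted p = 0.0209), and by -1.67 ± 0.83 (adjusted p = 0.128) without ND replicate 1 of the MCD cohort. It also missed the threshold without ND replicate 1 or 3 of the HFD cohort (-3.74 and -3.70, adjusted p = 0.0551 and 0.0529) and without the libraries with acinar transcripts (-3.81, adjusted p = 0.179).

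Tff3 is best known from intestinal goblet cells, and markers of those cells were read beside it. Spink4, Agr2 and Atoh1 were at 0 counts in all 22 libraries, and Muc2 had at most 2 counts. The 8 goblet cell markers together reached 6.41 to 41.3 CPM in the 6 libraries with acinar transcripts and at most 0.483 CPM in any other. Nearly all of that was Zg16, a zymogen granule gene that acinar cells also express, and the other 7 markers summed to at most 0.325 CPM in any library. In ND replicate 1 of the MCD cohort the 8 markers summed to 0.0740 CPM, with no Zg16 count, and Tff1 and Tff2 had no count.

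Sprr1a, a cornified-envelope protein of squamous epithelium that other tissues can switch on after injury, had the largest fold changes of the 10 genes. It had 95, 23, 82 and 123 counts in HFD vehicle livers, against 2, 0 and 0 counts in ND livers, or 1.46, 0.363, 1.32 and 1.9 CPM against 0.031, 0 and 0 CPM. Every HFD vehicle library was above every ND library. Over total counts, HFD vehicle livers had 118 times the ND level, with a 95% exact counting interval of 32.4 to 978 that covers counting error only, since ND livers had 2 counts in all. The log2 fold change was 6.53 ± 1.18 (adjusted p = 0.00189). Dropping the acinar-positive libraries kept 1 ND library, replicate 2, which had 0 counts of Sprr1a. The fit then gave 8.58 ± 3.21 and did not pass the test. With no ND count to set it against, that value cannot be read as a larger effect than 6.53.

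HFD DTMB livers had 11, 0, 5 and 0 counts of Sprr1a, or 0.198, 0, 0.0823 and 0 CPM. All 4 libraries were below the lowest HFD vehicle library, and 2 of them had no count. Sprr1a fell to 0.0505 of the HFD vehicle level over total counts (95% exact counting interval 0.0285 to 0.0833), with a log2 fold change of -4.12 ± 0.82 (adjusted p = 0.0133). The call held whichever 1 library was left out (-5.34 to -3.71), and was lost without the libraries with acinar transcripts (-3.62 ± 1.20, adjusted p = 0.307). Against ND, HFD DTMB livers had 5.96 times the level, with a counting interval of 1.40 to 53.4 that covers counting error only. Replicate 1 held 11 of the 16 counts. The groups overlapped, and the difference did not pass the test (log2 fold change 2.41 ± 1.51, adjusted p = 0.26).

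In MCD vehicle livers Sprr1a had 10.6, 41.6, 15.2 and 12.4 CPM, against 0.536, 0, 0.0387 and 0.0432 CPM in ND livers. The lowest vehicle library was far above the highest ND library, and vehicle replicate 2 and ND replicate 1 were the high libraries of their groups. The log2 fold change was 6.90 ± 0.88 (adjusted p = 0.000101), 6.25 without MCD vehicle replicate 2 and 9.37 without ND replicate 1. These ND livers had 29, 0, 2 and 2 counts of Sprr1a. The value of 9.37 rests on ND libraries with 0 to 2 counts and cannot be read as a larger effect. MCD DTMB livers had 48.7, 12 and 17.9 CPM, which overlapped MCD vehicle livers, with a log2 fold change of 0.39 ± 0.64 (adjusted p = 0.957). The effect of DTMB differed between the cohorts by 4.49 ± 1.15 on the log2 scale, which had an unadjusted p of 0.000870 and did not pass the adjustment over all genes (adjusted p = 0.296). No gene passed that test in edgeR (0%), where 1415 of 16541 genes had an unadjusted p under 0.05, and DESeq2 called 38.

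Squamous epithelium, the usual source of Sprr1a, was checked by its own markers. Krt1, Flg and Dsg3 were at 0 in all 22 libraries, Krt5 had at most 15 counts and Krt14 and Trp63 at most 3. Ivl had at most 14 counts and was at 0 in 16 libraries. The highest levels of Ivl (0.259 CPM) and Krt5 (0.222 CPM) were in MCD DTMB replicate 1, the library with the most Sprr1a. The part of squamous cells in its Sprr1a value was not tested. Krt10 made the largest part of the sums below, with a mean of 1.22 CPM over all libraries, against 0.369 CPM for Lor, the next. The 10 markers summed to 1.46 to 1.77 CPM in MCD DTMB, 1.37 to 1.93 CPM in MCD vehicle and 1.69 to 2.40 CPM in ND livers of that cohort. In HFD DTMB, HFD vehicle and ND livers of the HFD cohort they summed to 1.99 to 2.46, 1.501 to 2.68 and 2.19 to 2.26 CPM. Of the 3 markers that passed the count filter, 1 rose and 1 fell in each diet comparison and none was called with DTMB against vehicle.

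Among the 10 genes, levels can be ranked only per kb of exon. Krt8 was first in 5 of the 6 groups, with 231.7 CPM per kb in MCD vehicle livers, followed there by Krt18 with 168.3, Sprr1a with 24.8 and Krt23 with 10.4 CPM per kb. In ND livers of the HFD cohort Krt18 was first with 90.4 CPM per kb and Krt8 had 75.3 CPM per kb. Sprr1a moved furthest in this order, with 0.192 CPM per kb in ND livers of the MCD cohort. Krt7 had 0.118 CPM per kb in MCD vehicle livers. Length was the union of all exons annotated for a gene in GENCODE, 7049 bp for Krt7 against 1958 bp for Krt8, 1437 bp for Krt18 and 1855 bp for Krt19. A long union lowers the level per kb, so the place of Krt7 depends on that annotation.

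MCD vehicle replicate 2 was the highest library of its group in all 10 genes, as it was in 30.6% of all 16037 genes. Its excess over the mean of the other 3 libraries was 3.27-fold for Sprr1a, 3.15-fold for Krt23, 2.97-fold for Epcam, 2.86-fold for Cd24a, 2.60-fold for Krt7 and 2.43-fold for Krt19. It was 1.66-fold for Tff3, 1.25-fold for Krt8, 1.24-fold for Krt18 and 1.21-fold for Sox9. The same library was highest in 20 of 27 other cholangiocyte genes, 16 of 17 injury and repair genes, 11 of 17 progenitor genes, 10 of 24 junction genes and 3 of 20 hepatocyte genes. Its neutrophil markers summed to 4.44 CPM, against 1.62 to 3.38 CPM in the other 3, its mesothelial markers to 7.94 CPM against 2.70 to 4.80 CPM, and its acinar markers to 6.13 CPM against 6.53 to 21.6 CPM. Their part in its values was not tested. Without it the same 5 of the 10 genes passed the MCD diet test.

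**Figure D4:**
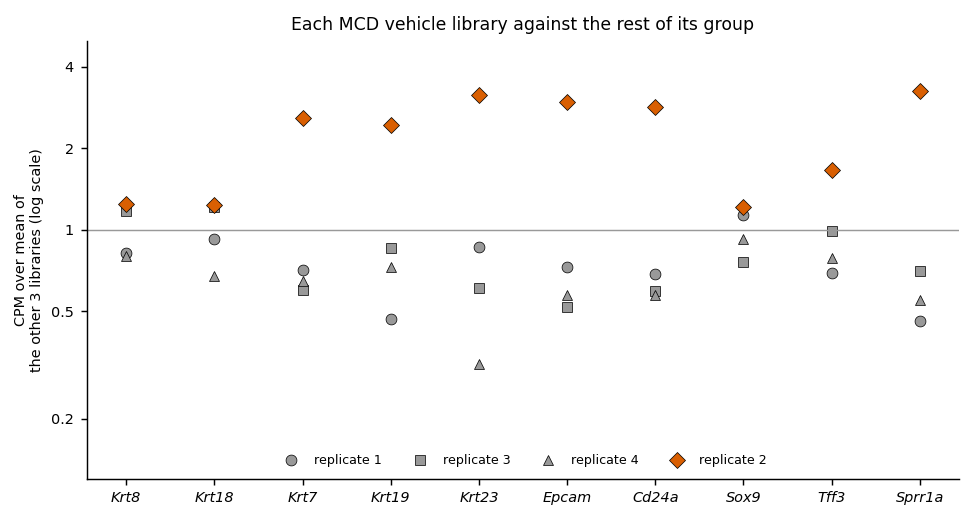
Each MCD vehicle library's CPM divided by the mean of the other 3 libraries of the group (vertical axis, log scale) for the 10 genes. Replicate 2 is the highest point in every gene, from 1.21 for Sox9 to 3.27 for Sprr1a.

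Genes related to the 10 were read from lists that leave the 10 out, and their counts stand beside the shares of all genes that rose or fell, which were 15.2% and 12.6% for HFD vehicle against ND, 6.64% and 6.04% for DTMB against vehicle on HFD, and 20.3% and 21% for MCD vehicle against ND. Of 25 other cholangiocyte genes tested in the HFD cohort, 5 rose and 2 fell in HFD vehicle livers against ND, with a median log2 fold change of 0.23. Pkhd1, the fibrocystin of duct cell cilia, rose (log2 fold change 1.20 ± 0.16), as did Wfdc2, a secreted epithelial protein (log2 fold change 1.53 ± 0.22), and the annexin Anxa4 (log2 fold change 0.57 ± 0.06). In MCD vehicle livers 7 of 27 rose and 3 fell (median 0.53). There Wfdc2 had 0.235, 0.264, 0.29 and 0.156 CPM, against 2.24, 1.08, 2.05 and 0.863 CPM in ND livers, and fell (log2 fold change -2.71 ± 0.41), while Anxa4 rose (log2 fold change 0.53). Ggt1, a glutathione-degrading enzyme, had 206 counts over the MCD vehicle livers and none over the ND livers. That was at least 63.7-fold higher over total counts, which are not TMM-adjusted.

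DTMB on HFD lowered 3 of the 25 cholangiocyte genes against HFD vehicle and raised none (median -0.27), where 6.04% of all genes fell. That count ran from 0 to 4 when 1 library was left out, with 0 without HFD vehicle replicate 1 or 4 or HFD DTMB replicate 4, and it was 0 with all libraries of both cohorts in one fit and without the libraries with acinar transcripts. Wfdc2 had 9.01, 5.94, 6.73 and 5.38 CPM in HFD DTMB livers, against 11.6, 11.3, 10.1 and 15.5 CPM in HFD vehicle livers, and fell (log2 fold change -0.84 ± 0.19, adjusted p = 0.0202). Pkhd1 fell (log2 fold change -0.58 ± 0.14, adjusted p = 0.0248). HFD DTMB livers were below HFD vehicle livers in every library for both genes.

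Of 17 injury and repair genes tested on MCD, 10 rose and 1 fell in MCD vehicle livers against ND, with a median log2 fold change of 2.03. The list holds 36 genes, of which 13 had no count in the MCD cohort. A gene near 0 in ND livers could pass the count filter only through libraries on MCD, so the share that rose and the median depend on that filter. Ly6d, a surface protein of epithelial and lymphoid cells, had 45.3, 123, 93.5 and 24.3 CPM in MCD vehicle livers, against 0.74, 0.632, 0.31 and 0.388 CPM in ND livers, a log2 fold change of 7.10 ± 0.66. Lcn2, an iron-siderophore-binding acute-phase protein, had 128, 478, 282 and 168 CPM, against 6.38, 6.93, 1.7 and 2.48 CPM in ND livers (log2 fold change 5.92 ± 0.63). Lamb3, a laminin chain of epithelial basement membrane, rose (log2 fold change 2.20 ± 0.15). Neutrophils also express Lcn2. Of 9 neutrophil markers 5 passed the count filter, and these 5 rose in this comparison. A marker low in ND livers can pass that filter through the MCD libraries alone. Of the markers not tested, Camp had no count in any of the 22 libraries and Ly6g at most 3. The 9 markers summed to 1.62 to 4.44 CPM in MCD vehicle and 0.216 to 0.775 CPM in ND livers. The part of neutrophils in the Lcn2 result was not tested.

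In HFD vehicle livers 6 of 20 injury and repair genes rose and 2 fell (median 0.38), counts that depend on the filter in the same way. Lcn2 had 65.6, 27.1, 27.6 and 81.7 CPM, against 4.38, 3.15 and 3.33 CPM in ND livers (log2 fold change 3.80 ± 0.53), and Ly6d rose (log2 fold change 1.95 ± 0.32). Itga2, a collagen-binding integrin chain, fell (log2 fold change -2.62 ± 0.32). DTMB on HFD lowered 3 of the 20 against HFD vehicle and raised none (median -0.66), a count that ran from 1 to 7 when 1 library was left out and was 0 without the libraries with acinar transcripts. Ly6d had 4.94, 2.25, 3.59 and 2.54 CPM in HFD DTMB livers, against 17.7, 8.83, 15.9 and 17.9 CPM in HFD vehicle livers, without overlap, and fell (log2 fold change -2.18 ± 0.29, adjusted p = 0.00523). Il33, an alarmin of epithelial and endothelial cells, fell (log2 fold change -0.86 ± 0.26, adjusted p = 0.0495).

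Of the junction genes, 3 of 24 rose and 2 fell in HFD vehicle livers against ND (median -0.16), and 4 rose and 5 fell in MCD vehicle livers (median 0.11). Pkp1, a desmosomal plaque protein, rose (log2 fold change 3.94 ± 0.43) and Cdh1, the E-cadherin of epithelial contacts listed with the cholangiocyte genes, fell (log2 fold change -1.32 ± 0.20) on MCD. DTMB on HFD lowered 6 of the 24 and raised 1 against HFD vehicle (median -0.19), 7 calls that ran from 3 to 7 when 1 library was left out and were 0 without the libraries with acinar transcripts. Dsp, the desmoplakin that ties keratin filaments to desmosomes, had 38.2, 42.2, 34 and 32.7 CPM in HFD DTMB livers, against 56.7, 55.2, 57.2 and 60.3 CPM in HFD vehicle livers. It fell (log2 fold change -0.64 ± 0.08, adjusted p = 0.00523).

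Of 16 progenitor, oncofetal and Notch genes, 3 rose and none fell on HFD with vehicle (median 0.28), where 15.2% of all genes rose. On MCD with vehicle 4 of 17 rose and 1 fell (median 0.61), where 20.3% of all genes rose. Both shares of genes that rose are near that background. Afp, the fetal serum protein of hepatoblasts, had 10.9, 35, 17.3 and 12.3 CPM in MCD vehicle livers, against 1.29, 0.902, 0.852 and 0.777 CPM in ND livers (log2 fold change 4.30 ± 0.37). On HFD with vehicle it rose (log2 fold change 2.24 ± 0.36). Lgr5, a Wnt receptor of pericentral hepatocytes and progenitors, rose (log2 fold change 1.82 ± 0.18) on HFD and fell (log2 fold change -0.93 ± 0.16) with DTMB against HFD vehicle (adjusted p = 0.00987). Of 20 hepatocyte identity genes, 3 rose and 7 fell in HFD vehicle livers against ND (median -0.22). With DTMB on HFD, 6 of the 20 rose and none fell against HFD vehicle (median 0.19). That count ran from 2 to 7 when 1 library was left out. Like the Lgr5 call with DTMB, these calls were lost without the libraries with acinar transcripts. On MCD with vehicle 1 of the 20 rose and 7 fell against ND (median -0.37).

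Other keratin genes were mostly silent. Of 50 further keratin rows, 43 had no count in the HFD cohort and 35 had none in the MCD cohort. On MCD with vehicle 5 of 7 tested rose and 1 fell against ND. Of the 7, 2 had no count in a compared group. A row without ND counts, such as Krt20, passed the count filter only through libraries on MCD, so the share that rose depends on that filter. The rows include the pseudogene Krt8-ps, which may share reads with Krt8. Krt20, a type I keratin of gut and urothelium (gene ID 66809, chr11:99428385-99438153), had 1.87, 0.805 and 2.2 CPM in MCD DTMB and 1.59, 12.2, 2.05 and 0.733 CPM in MCD vehicle livers, against no count in the ND livers. MCD vehicle livers had 1244 counts in all, at least 384-fold higher than ND over total counts, and MCD DTMB livers 287, at least 132.7-fold higher. Folds over total counts are not TMM-adjusted. Use of total counts alone moved the median log2 fold change of all genes up by 0.46 for MCD vehicle against ND. MCD vehicle replicate 2 held 920 of the 1244 counts, and without it the other 3 libraries had 324 counts, at least 132.69-fold higher than ND. In the HFD cohort 1 library of 11 had any Krt20 count.

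Krt79, a type II keratin of the hair follicle canal, was at a low level. It had 0, 0, 2 and 4 counts in HFD DTMB livers, against 20, 26, 16 and 21 counts in HFD vehicle livers, and 30, 30 and 42 counts in ND livers. HFD DTMB libraries were all below the vehicle libraries, and the log2 fold change was -3.52 ± 0.62 (adjusted p = 0.0106). It was the 1 further keratin called there, of 4 tested, and the call was lost without the libraries with acinar transcripts.

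**Figure D5:**
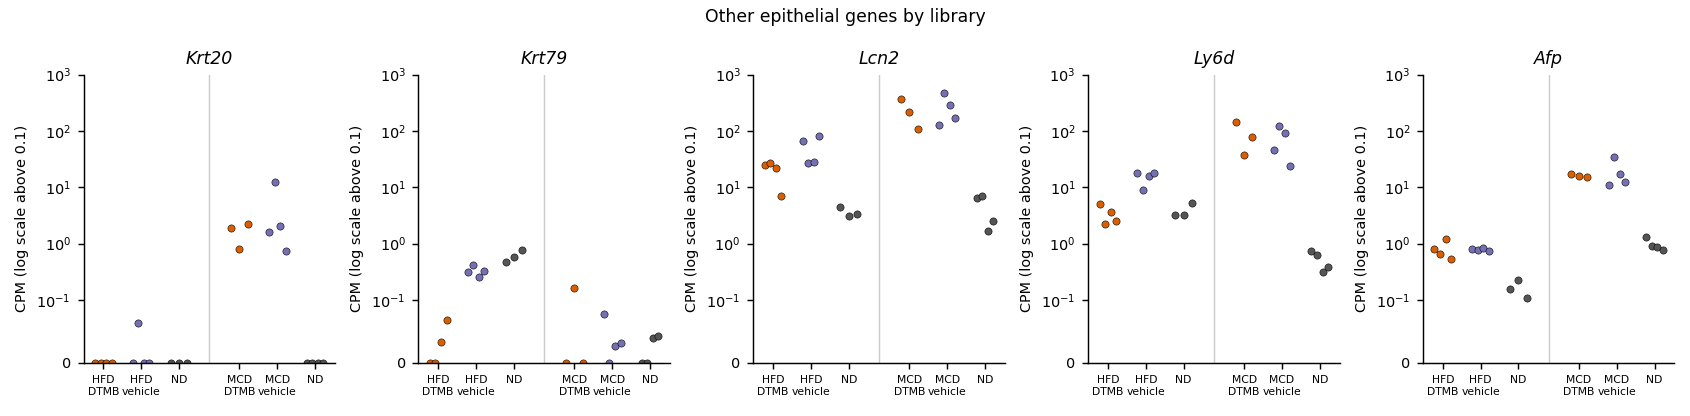
CPM (vertical axis, logarithmic above 0.1) of Krt20, Krt79, Lcn2, Ly6d and Afp in each library, with DTMB, vehicle and normal-diet groups from left to right in each cohort. Krt20 had no count in any normal-diet library, and Ly6d lay at 2.25 to 4.94 CPM in HFD DTMB livers and 8.83 to 17.9 CPM in HFD vehicle livers.

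DTMB on MCD called no gene of the cholangiocyte, injury, junction, progenitor, hepatocyte or keratin lists against MCD vehicle. Against ND, MCD DTMB livers had 9 of 17 injury and repair genes higher and 1 lower (median 1.28), where 16.2% of all genes were higher and 16.4% lower. They had 4 of 27 cholangiocyte genes higher and 3 lower, near those shares. Of 7 further keratins 4 were higher and 1 lower. The injury and keratin counts again depend on the filter. HFD DTMB livers against ND had 3 of 20 injury genes higher and 3 lower, and 5 of 25 cholangiocyte genes higher and 2 lower. They had 1 of 24 junction genes higher and 7 lower. Of all genes, 15.7% were higher and 13.5% lower there, and the injury and cholangiocyte counts are near those shares. Among markers of other cell types, DTMB on HFD against HFD vehicle raised 2 of 8 erythroid markers and lowered 1 of 7 B cell markers. Of all genes, 6.64% rose and 6.04% fell there. No acinar, goblet, mesothelial, neutrophil or squamous marker was called. When 1 library was left out, the erythroid calls ran from 0 to 2 and the B cell calls from 0 to 3. The erythroid markers summed to 615 to 1827 CPM in HFD DTMB livers (median 744). The B cell markers summed to 2.23 to 8.47 CPM in HFD vehicle livers (median 4.02). On MCD with vehicle against ND, 7 of 10 acinar, 4 of 7 B cell and 5 of 6 erythroid markers fell, among 21% of all genes. The acinar count rests on ND replicate 4, at 606 CPM, since the other 3 ND libraries summed to 10.8, 18.05 and 25.5 CPM and the MCD vehicle libraries to 6.13 to 21.6 CPM. Without ND replicate 4, 1 acinar marker fell.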

How the data were processed

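The authors deposited a table of raw, whole-number read counts per gene for each cohort. Per the submitters' processing notes, the build was mm10 and the tools included HISAT2 2.1.0, StringTie 2.1.3b, Trimmomatic 0.38 and FastQC 0.11.7; what each tool did, and how shared reads were counted, is not given in the sources used here. Of 45777 genes, 20101 had no count in any library.

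The deposited counts were tested in R 4.3.3 with edgeR 4.0.16 (filterByExpr, TMM, glmQLFit, glmQLFTest). One fit covered the 11 libraries of each cohort, and a further fit of all 22 gave the differences between cohorts. Adjusted p-values (Benjamini-Hochberg, over every gene tested) were called at 0.05. The SE of a log2 fold change was derived from its F statistic. CPM values were computed here from the counts. Folds against a group without counts were set against 3 counts in that group as a floor, per total counts, and cover counting error only. Folds over total counts are not TMM-adjusted, unlike the log2 fold changes. RefSeq positions and promoters are of GRCm38.p6; all 10 genes matched by gene ID. Figures used matplotlib 3.10.9.

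The 10 genes, the gene lists and the tests were chosen with earlier results of these data known. All 10 are named; from each list the 3 genes of smallest p called in a diet comparison and the 2 called in a DTMB comparison could be named. Alternatives were DESeq2 1.42.0, RLE factors, library size alone, no or a stricter count filter (CPM above 1 in 3 libraries), a fit of the compared groups alone, one fit of all libraries, a fold minimum (absolute log2 fold change of 1), a replicate block, leaving out libraries whose acinar list summed above 100 CPM, and leaving out each library. The procedure was tested on simulated counts. All 30 pairs of libraries within groups differed by more than sampling noise (chi-square per degree of freedom of at least 24.9).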

Additional observations from a re-analysis of the deposited data

Results flagged for a closer look

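In groups of 4 libraries, a highest or lowest value was picked out where its gap to the nearest other value was above Dixon's 95% critical value, as a share of the group's range. Chance does so in about 1 in 20 groups, and 8 of 40 gene and group pairs were picked out here. Of these, 4 were MCD vehicle replicate 2, with 1.55 CPM of Krt7, 4.36 CPM of Epcam, 10.6 CPM of Cd24a and 41.6 CPM of Sprr1a. Another 3 were ND replicate 1 of the MCD cohort, with 57.6 CPM of Tff3, 3.05 CPM of Krt23 and 0.536 CPM of Sprr1a. The eighth was HFD vehicle replicate 4, with 261 CPM of Krt8. Without that library the Krt8 log2 fold change on HFD was 0.43 (adjusted p = 0.00271).

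The diet effect differed between the cohorts by a test of the difference itself in Krt23 (2.43 on the log2 scale, MCD minus HFD), Sox9 (0.84) and Tff3 (-3.91). Cohort, diet and batch cannot be told apart in these differences.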

How the results depend on the processing

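No result turned its direction while called. The stricter count filter added Krt8 to the calls for DTMB against vehicle on HFD. DTMB against vehicle on HFD called 2 of the 10 genes as reported, 4 with DESeq2 (3028 of all genes, against 1978 as reported) and with library size alone (2799 of all genes), which added Krt8 and Krt18, 1 with no count filter, all libraries in one fit or a replicate block, and 0 without the libraries with acinar transcripts. HFD DTMB against ND called 1 in place of 2 with all libraries in one fit or without those libraries, and 0 with a minimum absolute log2 fold change of 1. HFD vehicle against ND called 1 in place of 3 with that fold minimum and 0 without those libraries. MCD vehicle against ND called 8 in place of 5 with library size alone, which moved the median of all genes by 0.46 there, 0.12 on HFD and -0.15 for DTMB on HFD and called 8853 of all genes in place of 6626. MCD DTMB against ND called 3 to 6 in place of 4 over the settings. The difference between diets called 0 in place of 3 without those libraries, where 2285 of all genes were called in place of 5847.

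Leaving out 1 library at a time gave 1 to 2 calls for DTMB against vehicle on HFD, 1 to 4 for HFD DTMB against ND, 2 to 4 for HFD vehicle against ND and 1 to 3 for the difference between diets, lowest without HFD-cohort ND replicate 3. Libraries of one replicate number did not deviate together (correlations between -0.444 and 0.339 on HFD, and between -0.269 and 0.0826 on MCD), so no pairing was used. With the replicate block, Krt23 passed on HFD (adjusted p = 0.0488), while Sox9 on HFD (0.0830), Tff3 with DTMB on HFD (0.0566) and the Tff3 difference between diets (0.104) did not. Low counts limit Krt7, Krt19 and, in ND and HFD DTMB livers, Sprr1a.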
